A study of Mus musculus with 8 samples.

Results

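Wnt signalling was followed through 9 genes, the ligands Wnt3, Wnt5a and Wnt5b, the targets and nuclear effectors Axin2, Lef1, Tcf7 and Sp5, and the antagonists Dkk1 and Sfrp1. A probe set counted as belonging to 1 of them when the platform's annotation gave that gene as its only symbol. On that rule 8 of the 9 genes had a probe set, 19 probe sets in all, out of 18193 genes measured on the array. Tcf7 had none under this rule and is not analysed here. Samples were mouse embryonic stem (ES) cells on Affymetrix GeneChip mouse arrays, 8 arrays in 4 groups of 2: Rbp2-/- cells after 6 days without leukemia inhibitory factor (LIF), Rbp2f/f cells after 6 days without it, Rbp2-/- cells with LIF, and Rbp2f/f cells with LIF. Mouse ES cells need this cytokine to stay undifferentiated. Rbp2, read here as Kdm5a, encodes an enzyme that takes methyl groups off histone H3. In the usual notation f/f marks floxed alleles, and the deleted cells carry -/-. The labels call the samples of a group biological replicates without naming clones or cultures, so the p-values capture only how far these arrays spread, which may be technical in part.

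Secreted Wnt proteins bind Frizzled receptors with the co-receptors LRP5 and LRP6. In the canonical branch this stops the degradation of beta-catenin, which then joins TCF and LEF proteins on DNA and switches on target genes, several of which encode inhibitors that limit the pathway. In mouse ES cells, Wnt activity both supports self-renewal and, in cells leaving that state, takes part in forming the primitive streak and mesoderm. Wnt5a and Wnt5b are best known for signalling that does not go through beta-catenin.

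Promoter sequences are shown for Sp5, Dkk1, Lef1 and Axin2, which encode pathway targets or inhibitors and read higher after LIF withdrawal in Rbp2f/f cells. The search had been planned for Axin2, Sp5, Lef1 and Tcf7, and Dkk1 was not in that plan. Sequences are from RefSeq, build GRCm38.p6, each 300 bases long from 250 before to 50 after an annotated start, 5′ to 3′ on the gene's strand. Capitals mark every match to the TCF/LEF core CTTTGA or, for a match on the other strand, its reverse complement TCAAAG. The Sp5 window lies at chr2:70474673-70474972 on the plus strand, the Dkk1 window at chr19:30549447-30549746 on the minus strand, the Lef1 window at chr3:131156044-131156343 on the plus strand and the Axin2 window at chr11:108920099-108920398 on the plus strand.
Sp5: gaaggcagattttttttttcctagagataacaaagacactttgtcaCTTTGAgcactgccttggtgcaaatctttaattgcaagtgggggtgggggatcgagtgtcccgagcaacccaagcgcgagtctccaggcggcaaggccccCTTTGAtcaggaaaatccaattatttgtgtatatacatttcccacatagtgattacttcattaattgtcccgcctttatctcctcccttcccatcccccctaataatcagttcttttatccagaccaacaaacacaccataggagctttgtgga
Dkk1: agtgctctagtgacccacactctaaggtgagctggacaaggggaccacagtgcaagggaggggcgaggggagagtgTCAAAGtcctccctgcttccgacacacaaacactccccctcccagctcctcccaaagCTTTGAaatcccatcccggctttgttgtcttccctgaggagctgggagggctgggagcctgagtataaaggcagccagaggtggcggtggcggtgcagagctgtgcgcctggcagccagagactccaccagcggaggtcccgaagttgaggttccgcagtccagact
Lef1: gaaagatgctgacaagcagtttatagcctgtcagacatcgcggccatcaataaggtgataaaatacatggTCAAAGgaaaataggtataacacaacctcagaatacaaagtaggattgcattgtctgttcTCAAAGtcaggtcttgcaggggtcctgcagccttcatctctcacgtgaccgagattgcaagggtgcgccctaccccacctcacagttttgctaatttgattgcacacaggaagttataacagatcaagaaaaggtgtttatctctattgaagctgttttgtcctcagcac
Axin2: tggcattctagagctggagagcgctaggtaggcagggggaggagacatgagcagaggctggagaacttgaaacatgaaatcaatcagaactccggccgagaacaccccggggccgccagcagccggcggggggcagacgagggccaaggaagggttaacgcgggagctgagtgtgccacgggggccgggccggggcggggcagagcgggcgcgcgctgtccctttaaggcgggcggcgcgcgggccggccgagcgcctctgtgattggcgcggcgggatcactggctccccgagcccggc
In Sp5 both matches read CTTTGA, starting 204 and 104 bases before the annotated start. In Dkk1 the match 174 bases before the start reads TCAAAG and the match 117 bases before it reads CTTTGA. The Lef1 window is 1 of 4 annotated starts of that gene, and both of its matches, 180 and 120 bases before the start, read TCAAAG. No match stands in the Axin2 window, nor in the other 3 Lef1 windows, the Wnt3 window or the 2 Tcf7 windows, and 1 of 3 Wnt5b windows has one. Over all genes of the table, 16% of 32851 windows held the core on either strand. Of the 13 windows of the 7 Wnt genes that the table lists, 4 held it. A match describes letters only, and says nothing on whether a factor binds there.

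Intensities are the authors' linear values per probe set, on a scale whose target no source used here gives. On its brightest probe set Kdm5a itself was lower in the deleted cells, at 100 and 80.2 in Rbp2-/- against 225.7 and 246.6 in Rbp2f/f cells without LIF, and at 31.2 and 30.6 in Rbp2-/- against 128.2 and 167.2 in Rbp2f/f cells with LIF. Limma called this genotype difference with LIF (-1.79 ± 0.25, adjusted p = 0.022) and not without it (-1.25 ± 0.25, adjusted p = 0.091). On withdrawal Kdm5a rose by 1.17 ± 0.25 in Rbp2-/- cells (limma adjusted p = 0.0051) and was at 0.63 ± 0.25 in Rbp2f/f cells (adjusted p = 0.093). The difference of these effects was 0.54 ± 0.36 (adjusted p = 0.54). Its dimmest probe sets, averaging 15.6 or less over all arrays, were less reduced or higher in Rbp2-/- cells. Where the Kdm5a probes lie relative to the deleted part was not analysed here. The ES cell label was checked with 9 markers. Their intensities summed to between 3604.1 and 4972.1 on the 4 arrays of cells lacking LIF, against between 14013.6 and 23987.3 on the 4 with it, and limma called all 9 lower on withdrawal in each genotype. Replicate 2 of Rbp2-/- with LIF was dim: its trimmed mean intensity, 77.03, came to 65.4% of that of the remaining 7 arrays. The median log2 difference of all genes was -0.28 for genotype with LIF, 0.02 for genotype without LIF, 0.39 for withdrawal in Rbp2-/- cells, 0.07 for withdrawal in Rbp2f/f cells and 0.31 for the difference of the withdrawal effects. The main value of a Wnt gene is also given relative to these medians where the shift exceeds 0.1. Differences of other genes are as measured, so that those for withdrawal in Rbp2-/- cells lie 0.39 lower relative to the median. Quantile normalization, which removes the shift, was run as an alternative.

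After LIF withdrawal, in both genotypes, the ligands Wnt3 and Wnt5a, the targets Axin2 and Lef1 and the antagonist Dkk1 rose. These calls were not equally firm: those of Wnt3 were lost in both genotypes without the filter on low values, those of Lef1 in both after quantile normalization, and that of Axin2 in Rbp2-/- cells after it. Sp5 also rose in Rbp2f/f cells. Sfrp1 alone among the genes tested was lower in its mean without LIF, and its difference did not pass. Each gene was tested on its brightest probe set as log2(intensity + 16), a scale that understates changes of dim genes, with limma over all 8 arrays and p-values adjusted over the 10916 genes whose mean over all arrays reached the 40th percentile, an intensity of 28.3. Genes with an adjusted p under 0.05 are called. The plot of intensities shows the 8 genes in every array.

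**Figure D1:**
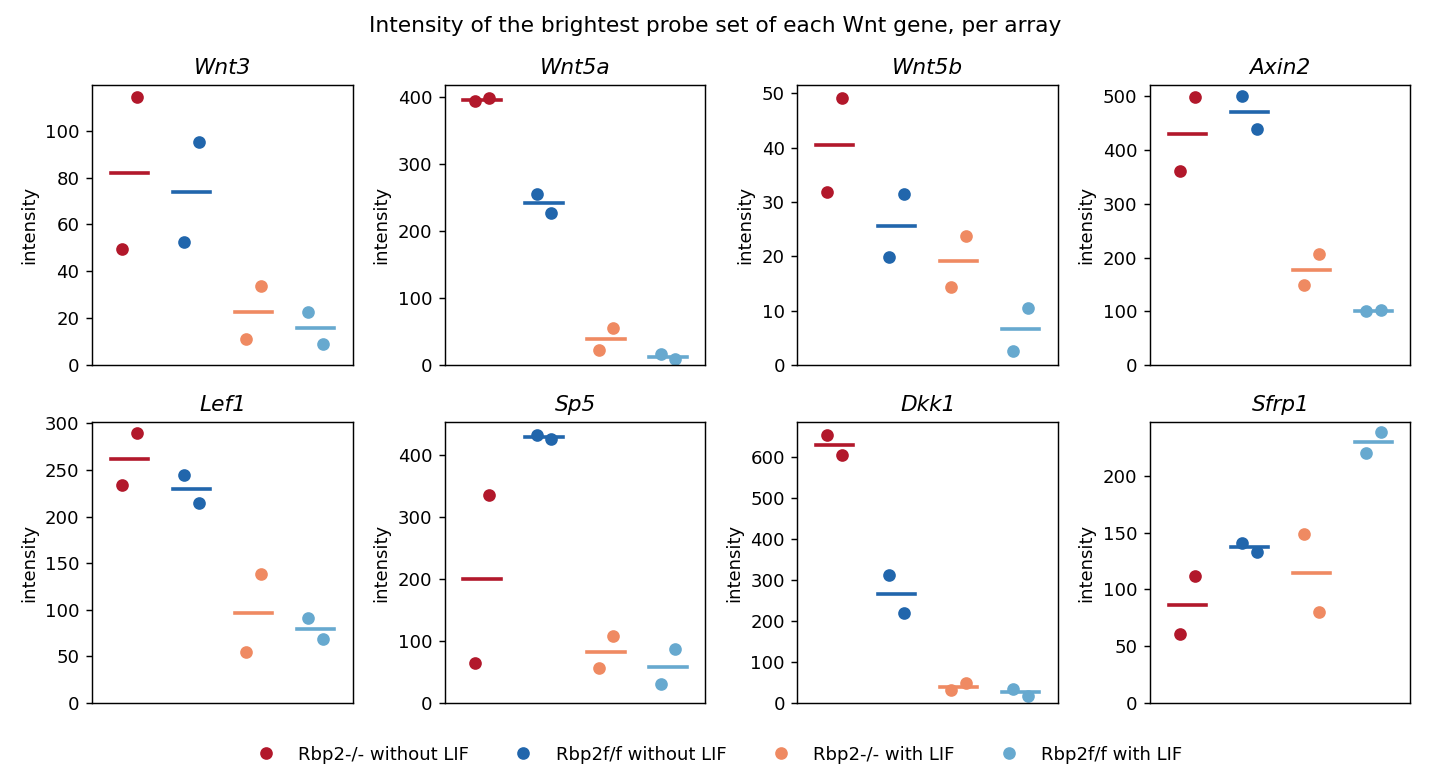
Intensity (linear, authors' values) of the brightest probe set of each of the 8 Wnt genes, with points for the 2 arrays of a group and a line at their mean. In 7 of the panels the groups without LIF lie above those with LIF in the mean, while Sfrp1 is highest in Rbp2f/f cells with LIF, and the Sp5 arrays of Rbp2-/- without LIF stand far apart at 64.2 and 335.1.

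Wnt5a, a ligand of migration and tissue elongation, read 393.4 and 398.4 in Rbp2-/- cells without LIF and 255.2 and 227.5 in Rbp2f/f cells without it, against 22.8 and 55.9 in Rbp2-/- and 16.2 and 8.8 in Rbp2f/f cells with LIF. The groups did not overlap, and the order from the top was Rbp2-/- without LIF, Rbp2f/f without LIF, Rbp2-/- with LIF and Rbp2f/f with LIF. On withdrawal it rose by 2.96 ± 0.30 (SE) on the log2 scale in Rbp2-/- cells, or 2.57 relative to the all-gene median (adjusted p = 2.3e-05), and by 3.18 ± 0.30 in Rbp2f/f cells (adjusted p = 1.9e-05). Its other 3 probe sets had the same order of group means. Of these, 2 averaged 245 and 84.4 in Rbp2-/- and 118 and 46.7 in Rbp2f/f cells lacking LIF, against 31.7 and 4.10 in Rbp2-/- and 17.3 and 1.95 in Rbp2f/f cells with it. The dimmest averaged 32.0 in Rbp2-/- and 20.8 in Rbp2f/f cells lacking LIF, against 19.5 in Rbp2-/- and 7.40 in Rbp2f/f cells with it. Tested by limma on its own among all probe sets, the dimmest was called in neither genotype (adjusted p = 0.32 in Rbp2-/- and 0.19 in Rbp2f/f cells).

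Wnt3, a ligand needed for the primitive streak in the mouse embryo, read 49.6 and 114.2 in Rbp2-/- and 52.7 and 95.1 in Rbp2f/f cells without LIF, against 11.4 and 33.6 in Rbp2-/- and 22.6 and 9.2 in Rbp2f/f cells with it. Arrays without LIF all stood above those with LIF, and the genotypes overlapped in each medium. Wnt3, like Sp5, had only 1 probe set, so no other probe set could be set beside these values. Wnt3 rose by 1.33 ± 0.40 in Rbp2-/- cells (0.94 relative to the all-gene median, adjusted p = 0.027) and by 1.49 ± 0.40 in Rbp2f/f cells (adjusted p = 0.016). After quantile normalization the Rbp2-/- difference was 0.97 ± 0.44 (adjusted p = 0.17), and without the filter on low values neither genotype passed, at adjusted p = 0.091 in Rbp2-/- and 0.067 in Rbp2f/f cells. In Rbp2-/- cells the call was also lost without replicate 1 with LIF (0.90, adjusted p = 0.15) and without replicate 2 lacking LIF (0.83, adjusted p = 0.26). The Rbp2f/f call was lost without replicate 2 with LIF (1.18, adjusted p = 0.12) and without replicate 2 lacking LIF (1.14, adjusted p = 0.15). Here and in every value below that leaves out an array, a group left with 1 array was assumed to vary like the others.

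Wnt5b, the closest relative of Wnt5a, was dim throughout. Its brighter probe set read 31.8 and 49.2 in Rbp2-/- and 19.9 and 31.4 in Rbp2f/f cells without LIF, against 14.4 and 23.8 in Rbp2-/- and 2.7 and 10.5 in Rbp2f/f cells with it. Within each genotype the arrays without LIF were the higher ones. Its mean of 23.0 fell under the filter, and in a fit of all 18193 genes with no filter it stood at 0.68 ± 0.30 in Rbp2-/- (adjusted p = 0.18) and 0.89 ± 0.30 in Rbp2f/f cells (adjusted p = 0.096). The other Wnt5b probe set averaged 44.2 in Rbp2-/- and 26.6 in Rbp2f/f cells without LIF, against 8.75 in Rbp2-/- and 5.85 in Rbp2f/f cells with LIF. Tested on its own among all probe sets, that one rose by 1.29 in Rbp2-/- cells (adjusted p = 0.0099) and by 0.97 in Rbp2f/f cells (adjusted p = 0.037).

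Axin2, a scaffold of the complex that degrades beta-catenin and itself a standard target of the pathway, read 360.4 and 497.8 in Rbp2-/- and 501 and 439.2 in Rbp2f/f cells without LIF, against 149.4 and 206.1 in Rbp2-/- and 100.5 and 102.6 in Rbp2f/f cells with it. The genotypes overlapped without LIF, and with LIF the Rbp2-/- arrays were the higher pair. On withdrawal Axin2 rose by 1.20 ± 0.28 in Rbp2-/- cells (0.81 relative to the all-gene median, adjusted p = 0.0072) and by 2.05 ± 0.28 in Rbp2f/f cells (adjusted p = 0.00016). The Rbp2-/- call did not hold after quantile normalization, at 0.79 ± 0.27 (adjusted p = 0.083), nor when replicate 2 lacking LIF was omitted, at 0.97 ± 0.36 (adjusted p = 0.096). Its second probe set averaged 46.7 in Rbp2-/- and 29.8 in Rbp2f/f cells without LIF, against 26.2 in Rbp2-/- and 9.40 in Rbp2f/f cells with LIF. Tested on its own among all probe sets, that one was called in neither genotype. Its withdrawal difference was 0.60 in Rbp2-/- (adjusted p = 0.24) and 0.87 in Rbp2f/f cells (adjusted p = 0.11).

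Lef1, the DNA-binding partner of beta-catenin that the pathway itself induces, read 234.3 and 289.5 in Rbp2-/- and 244.8 and 215 in Rbp2f/f cells without LIF, against 54.6 and 138.4 in Rbp2-/- and 90.6 and 68.5 in Rbp2f/f cells with it. The media did not overlap and the genotypes did. Its rise was 1.41 ± 0.33 in Rbp2-/- cells (1.02 relative to the all-gene median, adjusted p = 0.0081) and 1.37 ± 0.33 in Rbp2f/f cells (adjusted p = 0.0092). After quantile normalization these stood at 0.96 ± 0.41 in Rbp2-/- (adjusted p = 0.14) and 1.22 ± 0.41 in Rbp2f/f cells (adjusted p = 0.052). With replicate 2 of Rbp2-/- lacking LIF omitted, the Rbp2-/- difference was 1.26 (adjusted p = 0.065). The Rbp2f/f call was lost without replicate 2 with LIF (1.20, adjusted p = 0.077) and without replicate 1 lacking LIF (1.28, adjusted p = 0.053). The second Lef1 probe set averaged 135 ± 3.46 in Rbp2-/- and 96.0 ± 2.40 in Rbp2f/f cells without LIF, against 42.6 ± 3.54 in Rbp2-/- and 39.6 ± 6.86 in Rbp2f/f cells with LIF (SD, n = 2 each).

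Sp5, a zinc finger factor induced directly by Wnt signalling, differed widely between replicates of Rbp2-/- without LIF. It read 64.2 and 335.1 in Rbp2-/- and 432.6 and 426.4 in Rbp2f/f cells without LIF, against 56.5 and 107.8 in Rbp2-/- and 29.7 and 85.9 in Rbp2f/f cells with it. Replicate 1 of Rbp2-/- without LIF lay within the range of the arrays with LIF. Sp5 rose by 2.71 ± 0.52 in Rbp2f/f cells (adjusted p = 0.0025), and its difference in Rbp2-/- cells was 0.82 ± 0.52, or 0.44 relative to the all-gene median (adjusted p = 0.27). Without replicate 1 of Rbp2-/- lacking LIF the Rbp2-/- difference was 1.89 ± 0.45 (adjusted p = 0.014), and without replicate 2 it was -0.24 ± 0.44.

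The genes below were picked after the Sp5 values had been seen. In Rbp2-/- cells without LIF, replicate 1 and replicate 2 read 139 and 1145.8 for Mixl1, 116.3 and 795.3 for Eomes, 40.9 and 163.5 for Mesp1 and 14.8 and 71.9 for Gsc, all of them genes of the streak. Fgf8, a growth factor of the streak, read 77.1 and 323.4 there. Hand1, a factor of lateral mesoderm, went the other way at 3567 and 1868.5, and is a large part of the sum below. Foxf1 read 360.2 and 401.4 there, Gata4 156.5 and 187.9, and Kdr 153.4 and 333. Tbx6, at 22.2 and 30.9, and Pdgfra, at 78.5 and 70.4, complete the streak and mesoderm markers measured. Over the list, 10 of 11 markers had a probe set, and their summed intensity was 4648.8 and 5068.6 in Rbp2-/- and 2916.1 and 2497.2 in Rbp2f/f cells without LIF, against 731.9 and 482.2 in Rbp2-/- and 385.9 and 323.5 in Rbp2f/f cells with LIF. The part of these cells in the Sp5 values was not tested, and in a bulk sample fewer cells of a type and less RNA per cell cannot be told apart.

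Dkk1, a secreted antagonist that binds LRP5 and LRP6 and is itself induced by Wnt signalling, had the largest withdrawal effect of the 7 tested Wnt genes in Rbp2-/- cells. It read 651.7 and 604.8 in Rbp2-/- and 312.2 and 219.3 in Rbp2f/f cells without LIF, against 31.1 and 47 in Rbp2-/- and 34.4 and 16.5 in Rbp2f/f cells with it. Genotypes separated without LIF and overlapped with it. The rise was 3.56 ± 0.29 in Rbp2-/- cells (3.17 relative to the all-gene median, adjusted p = 8.3e-06) and 2.78 ± 0.29 in Rbp2f/f cells (adjusted p = 2.8e-05). A second probe set averaged 86.4 ± 3.82 in Rbp2-/- and 45.1 ± 3.68 in Rbp2f/f cells without LIF, against 6.35 ± 2.47 in Rbp2-/- and 0.45 ± 0.354 in Rbp2f/f cells with LIF (SD, n = 2 each), so both probe sets gave the same order of groups.

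Sfrp1, a secreted protein that binds Wnt ligands and Frizzled receptors, ran the other way. Its brightest probe set read 60.3 and 112.1 in Rbp2-/- and 141.3 and 133 in Rbp2f/f cells without LIF, against 148.5 and 79.6 in Rbp2-/- and 220.8 and 238.6 in Rbp2f/f cells with it. Rbp2f/f cells with LIF stood above every other array. The withdrawal differences were -0.34 ± 0.31 in Rbp2-/- (-0.73 relative to the all-gene median, adjusted p = 0.44) and -0.68 ± 0.31 in Rbp2f/f cells (adjusted p = 0.14). After quantile normalization Sfrp1 passed as lower in Rbp2f/f cells, at -0.81 ± 0.23 (adjusted p = 0.030), and stood at -0.77 ± 0.23 in Rbp2-/- cells (adjusted p = 0.053). Of the other 4 Sfrp1 probe sets, 3 had negative withdrawal differences in both genotypes, from -1.01 to -0.19 in Rbp2-/- and from -1.10 to -0.25 in Rbp2f/f cells, and the dimmest had positive ones, 0.89 in Rbp2-/- and 0.07 in Rbp2f/f cells.

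**Figure D2:**
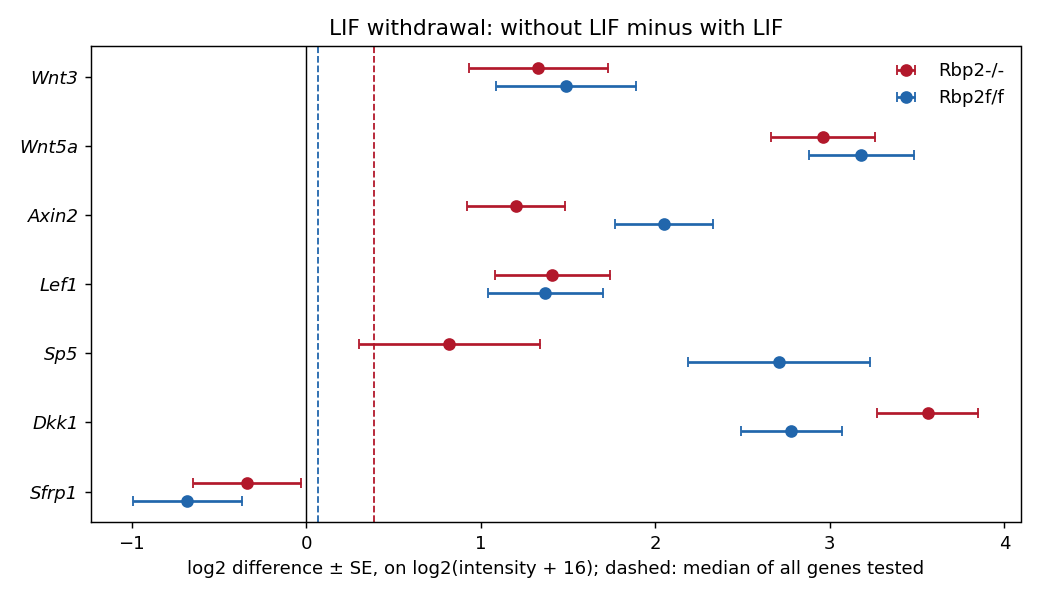
Log2 difference between arrays without and with LIF for the 7 tested Wnt genes, in Rbp2-/- (red) and Rbp2f/f cells (blue); points are limma estimates, bars are standard errors, and dashed lines mark the median of all genes tested (0.39 in Rbp2-/- and 0.07 in Rbp2f/f cells). Wnt5a and Dkk1 lie farthest right in Rbp2-/- cells, Sp5 stands at 0.82 in Rbp2-/- and 2.71 in Rbp2f/f cells, Axin2 at 1.20 in Rbp2-/- and 2.05 in Rbp2f/f cells, and only Sfrp1 is below 0.

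Counted over the 7 tested genes, 5 were called higher and 0 lower in Rbp2-/- cells, where 19.7% of all genes tested were called higher, 3.33% lower and 23% in all. In Rbp2f/f cells 6 were called higher and 0 lower, where 13.4% of all genes were called higher, 6.97% lower and 20.4% in all. Wnt3 and Wnt5a reached the filter only through the arrays without LIF, their means with LIF being 19.2 and 25.9, so the share called among the tested genes carries that choice. With no filter and all 8 genes, 4 passed in Rbp2-/- cells, beside 8.17% of all genes called higher and 9.71% in all, and 5 passed in Rbp2f/f cells, beside 6.27% higher and 9.42% in all. After quantile normalization 2 of 7, Wnt5a and Dkk1, stayed called in Rbp2-/- cells, where 7.23% of all genes were called higher and 8.27% lower. In Rbp2f/f cells 6 of 7 were then called, 5 higher and Sfrp1 lower, beside 13.9% of all genes higher and 13.3% lower. The median difference of the 7 was 1.33 in Rbp2-/- cells, beside 0.39 over all genes, and 2.05 in Rbp2f/f cells, beside 0.07. Leaving out replicate 2 of Rbp2-/- without LIF lowered the Rbp2-/- count, as it did the number of all genes called. Every array without LIF was above every array with LIF for 5 of the 7 genes in Rbp2-/- cells, as for 51.9% of all genes, and for 6 of the 7 in Rbp2f/f cells, as for 38.5%. The reverse held for 0 of the 7 in Rbp2-/- cells (7.7% of all genes) and for Sfrp1 in Rbp2f/f cells (30% of all genes).

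The same count was made probe set by probe set. Of the 14 probe sets of the 7 genes other than Sfrp1, arrays without LIF were all above arrays with LIF for 13 in Rbp2-/- and for 14 in Rbp2f/f cells, as for 51.7% and 35.6% of all probe sets tested. When each of 20969 probe sets was tested on its own, 10 of the 19 Wnt probe sets were called higher and 0 lower in Rbp2-/- cells, where 14.6% of all were called higher and 2.12% lower. In Rbp2f/f cells 11 were called higher and 0 lower, beside 9.77% and 4.71% of all. That fit kept probe sets whose mean over all arrays reached 18.9. With LIF, a Wnt5a, a Wnt5b and a Dkk1 probe set averaged 4.1, 8.75 and 6.35 in Rbp2-/- cells. In Rbp2f/f cells with LIF they averaged 1.95, 5.85 and 0.45. These, among others, reached the filter only through the arrays without LIF, and they were called in both genotypes. The counts and shares of Wnt probe sets carry that choice. Probe sets of a gene share their RNA and are not replicates.

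**Figure D3:**
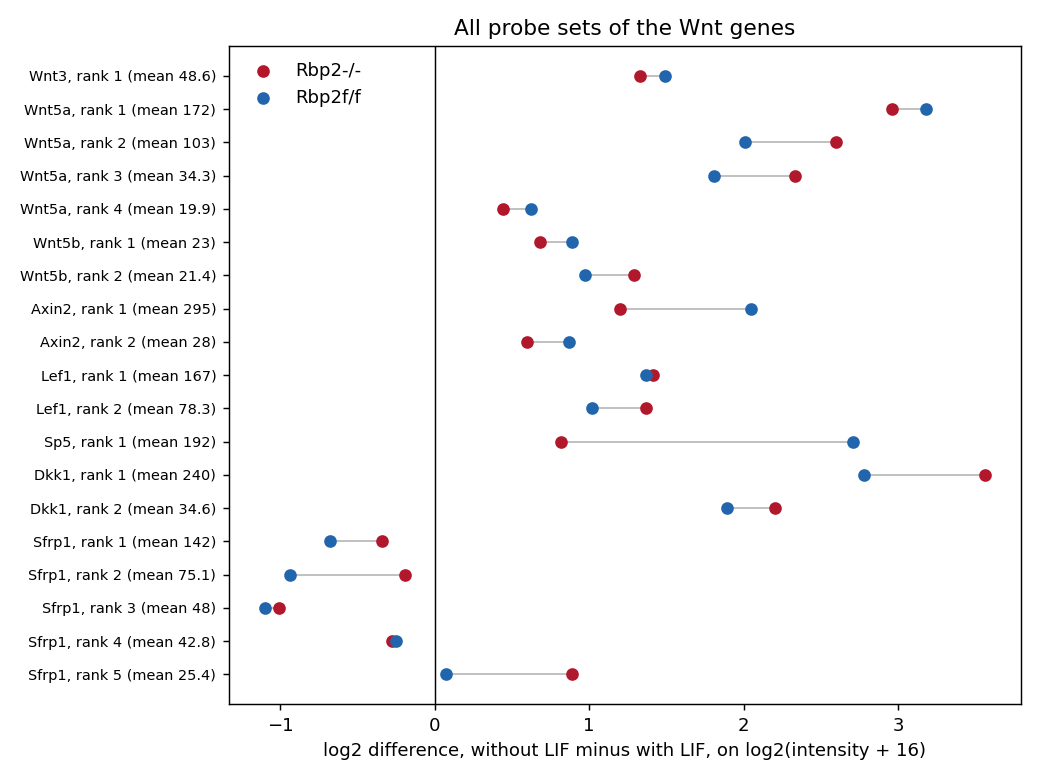
Withdrawal difference (log2, without LIF minus with LIF) of all 19 probe sets of the 8 Wnt genes in Rbp2-/- (red) and Rbp2f/f cells (blue), ordered within a gene by mean intensity, which is given in brackets. All 14 probe sets of genes other than Sfrp1 lie right of 0 in both genotypes, and 4 of the 5 Sfrp1 probe sets lie left of it.

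In their summed intensity, feeder fibroblast markers moved the same way as the ligands. Of 17 markers 16 had a probe set, and none was listed at 0 on any array. Their summed intensity was 5342.7 and 2806.6 in Rbp2-/- and 2814.8 and 2626.3 in Rbp2f/f cells without LIF, against 1181.7 and 1076.1 in Rbp2-/- and 916.7 and 596.4 in Rbp2f/f cells with it. Among the 12 tested, 7 were called higher in Rbp2-/- and 9 in Rbp2f/f cells, beside 19.7% and 13.4% of all genes, and 4 and 8 after quantile normalization. The 7 called in both genotypes were the collagens Col1a1, Col5a1 and Col6a1, the matrix protein Postn, the factors Twist1 and Twist2, and Pdgfrb. Of these, Col6a1, Postn and Pdgfrb averaged 19.2, 26 and 22 in Rbp2-/- cells with LIF. In Rbp2f/f cells with LIF they averaged 12.2, 19 and 13.1. They reached the filter, an intensity of 28.3, only through the arrays without LIF. The counts and shares of fibroblast markers called carry that choice. Of the 12, 11 had a positive difference in Rbp2-/- and 9 in Rbp2f/f cells. Lox was at -0.56 in Rbp2-/- and -0.12 in Rbp2f/f cells, and in Rbp2f/f cells Thy1 was at -0.29 and S100a4 at -0.17. Of the markers too dim to be tested, Dcn read 14.5 and 24.1 in Rbp2-/- and 70.1 and 56.6 in Rbp2f/f cells without LIF. With LIF it read 10.4 and 2.6 in Rbp2-/- and 5 and 25.4 in Rbp2f/f cells. Lum read 24.6 and 22.4 in Rbp2-/- and 73.1 and 29.2 in Rbp2f/f cells without LIF. With LIF it read 10.4 and 6 in Rbp2-/- and 7.8 and 4.6 in Rbp2f/f cells. Prrx1 stayed between 11.3 and 24.1 on every array, and Fap between 3.4 and 11.7. Other cell type lists were summed as well. Markers of extraembryonic endoderm summed to 558.8 to 714.3 without LIF, against 146.9 to 217.2 with it. Those of trophoblast summed to 14917.7 to 17595.7 against 4040.7 to 8554.7, and those of neuroectoderm to 194.4 to 501.6 against 266.9 to 725.1. Krt8, Krt18 and Hand1, the last also on the mesoderm list, made up most of the trophoblast sum. Of 7 trophoblast markers tested, 4 were called higher and 1 lower in each genotype, beside 19.7% and 13.4% of all genes higher and 3.33% and 6.97% lower. Tfap2c was the lower one, at -1.5 in Rbp2-/- and -1.86 in Rbp2f/f cells. Ascl2, uncalled, was at -1.48 in Rbp2-/- and -0.79 in Rbp2f/f cells, and Elf5 read 2.4 to 19.3. The part of fibroblasts or of these other cells in the Wnt values was not tested.

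Genotypes were compared in each medium to ask which Wnt genes differ when RBP2 is lost. No Wnt gene passed in either medium, in a setting where few genes did. Without LIF limma called 0 of the 7, beside 0.0275% of all genes (0.0183% higher, 0.00916% lower), and 3 of the 7 had an unadjusted p under 0.05, beside 10.1% of all genes. Dkk1 was nearest, at 651.7 and 604.8 in Rbp2-/- against 312.2 and 219.3 in Rbp2f/f cells, a log2 difference of 1.21 ± 0.29 (adjusted p = 0.14). It passed with a pseudocount of 64 (1.08 ± 0.21, adjusted p = 0.041), with array weights (adjusted p = 0.015) and with the replicate number as a block (adjusted p = 0.041). Those fits called 54, 487 and 149 of all genes, against 3 as deposited. In the other 17 of 20 alternatives Dkk1 stayed uncalled, as after quantile normalization (adjusted p = 0.16). Wnt5a stood at 0.68 ± 0.30 (adjusted p = 0.45), with its Rbp2-/- arrays above its Rbp2f/f arrays on all 4 probe sets. Sp5 stood at -1.41 ± 0.52 (adjusted p = 0.35), a value that was -2.47 ± 0.44 (adjusted p = 0.011) without replicate 2 of Rbp2-/- lacking LIF and -0.34 without replicate 1, and that passed with the block (adjusted p = 0.047). Sfrp1 stood at -0.63 ± 0.31, a value that was -0.26 without replicate 1 of Rbp2-/- lacking LIF and -1 without replicate 2. Lef1 stood at 0.17 ± 0.33, Wnt3 at 0.08 ± 0.40 and Axin2 at -0.14 ± 0.28. Arrays of the genotypes did not overlap for 2 genes that were higher (Wnt5a and Dkk1) and 2 that were lower (Sp5 and Sfrp1), as for 30.5% and 23% of all genes.

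With LIF limma also called 0 of the 7, beside 0.257% of all genes (0.0641% higher, 0.192% lower), and 3 had an unadjusted p under 0.05, beside 17.7% of all genes. Wnt5a stood at 0.90 ± 0.30 in Rbp2-/- over Rbp2f/f cells, or 1.18 relative to the all-gene median (adjusted p = 0.18). Axin2 stood at 0.71 ± 0.28, or 0.99 relative to it (adjusted p = 0.23). For Sfrp1, at 148.5 and 79.6 in Rbp2-/- against 220.8 and 238.6 in Rbp2f/f cells, the difference was -0.97 ± 0.31, or -0.69 relative to that median (adjusted p = 0.17). The other 4 genes lay between 0.14 and 0.47 as measured, and between 0.42 and 0.75 relative to the median. Arrays did not overlap for Wnt5a and Axin2, which were higher as 4.42% of all genes were, and for Sfrp1, which was lower as 39.2% were.

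**Figure D4:**
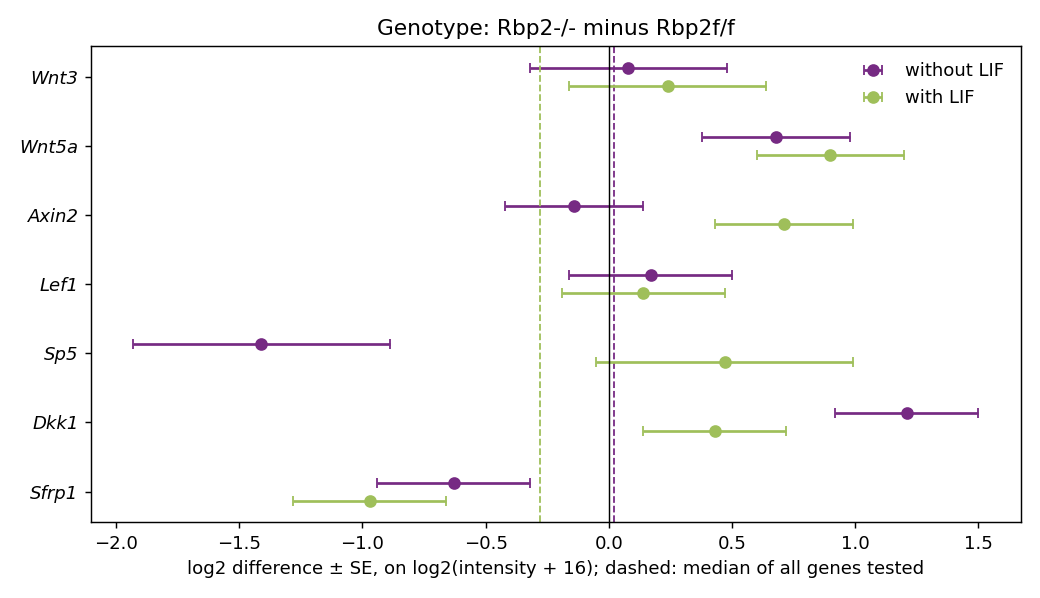
Log2 difference between Rbp2-/- and Rbp2f/f cells for the 7 tested Wnt genes, without LIF (purple) and with LIF (green); points are limma estimates, bars are standard errors, and dashed lines mark the median of all genes tested (0.02 without and -0.28 with LIF). Dkk1 and Sp5 without LIF lie farthest from 0, at 1.21 and -1.41, and none of the 14 differences passed after adjustment.

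The genotype values with LIF moved with single arrays. Replicate 2 of Rbp2-/- with LIF, the array with the lowest trimmed mean, gave the highest reading of the 4 arrays with LIF for 7 of the 8 Wnt genes, Sfrp1 being the exception, whereas 4.9% of all genes tested were highest there. Its correlations across genes, which are not independent replicates, with the 4 arrays of cells lacking LIF lay between 0.899 and 0.923, while those of replicate 1 lay between 0.863 and 0.890. Without replicate 1 of Rbp2-/- with LIF, Wnt5a, Axin2 and Sfrp1 passed, at 1.35 ± 0.25, 0.92 ± 0.25 and -1.36 ± 0.31 (adjusted p = 0.016, 0.034 and 0.022), in a fit that called 2447 genes. Without replicate 2 none passed, with Wnt5a at 0.46, Axin2 at 0.49 and Sfrp1 at -0.58.

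Whether withdrawal acted differently in the genotypes was tested as the difference of their effects, Rbp2-/- minus Rbp2f/f. Limma called 0 of the 7 Wnt genes and 0% of all genes (0% higher and 0% lower), with 2 of the 7 and 11.6% of all genes at an unadjusted p under 0.05. Sp5 stood at -1.88 ± 0.74, or -2.19 relative to the all-gene median (adjusted p = 0.39). Without replicate 1 of Rbp2-/- lacking LIF it was -0.82, and without replicate 2 -2.95 (adjusted p = 0.054). Axin2 stood at -0.85 ± 0.39, or -1.16 relative to the median (adjusted p = 0.42). Dkk1 stood at 0.78 ± 0.41, or 0.48 (adjusted p = 0.46). The other 4 lay between -0.22 and 0.34 as measured and between -0.53 and 0.03 relative to the median. Without replicate 1 of Rbp2-/- with LIF, limma called 1430 genes for this difference, with 0 of the 7 Wnt genes among them.

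Patterns most like each Wnt gene were found by Pearson correlation over the 8 arrays, which fall into 4 groups, as a description only. Dkk1 was nearest to Rgs5 (r = 0.995) and Daam2 (0.994), a formin that binds Dishevelled, and Wnt5a to Mogat2 and Ppfibp1 (both 0.994). Axin2 was nearest to Meis3 (0.991) and Tpm1 (0.99), Lef1 to Kif26b (0.985) and Zfp358 (0.979), and Wnt3 to Frmd4a (0.975) and Slc39a1 (0.974). Sp5 had the weakest best match, Ablim1 at 0.964 and then Lrig3 at 0.962. Sfrp1 was nearest to Hnrnpd (0.988) and Ifitm1 (0.977). Among the Wnt genes themselves, Wnt5a and Dkk1 correlated at 0.98, Wnt5a and Axin2 at 0.96, Sp5 and Dkk1 at 0.58, and Sfrp1 was negative with each of the other 6, from -0.68 to -0.15.

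The rest of the pathway was listed by role, 102 genes in 7 lists, of which 100 had a probe set and 74 were tested. Of the 74, 11 reached the filter only through the arrays without LIF, and 0 only through those with it. On withdrawal 35 were called higher and 6 lower in Rbp2-/- cells, beside 19.7% and 3.33% of all genes, and 26 higher and 7 lower in Rbp2f/f cells, beside 13.4% and 6.97%. With no filter and all 100 genes, 24 were called higher and 6 lower in Rbp2-/- cells, beside 8.17% and 1.53% of all genes, and 24 higher and 6 lower in Rbp2f/f cells, beside 6.27% and 3.15%. After quantile normalization the split was 16 higher and 9 lower in Rbp2-/- cells, beside 7.23% and 8.27% of all genes, and 26 higher and 9 lower in Rbp2f/f cells, beside 13.9% and 13.3%. These shares of all genes are also those beside which the count of each list below stands. The Rbp2-/- count of higher genes was lower without replicate 2 of Rbp2-/- lacking LIF, and the Rbp2f/f count without replicate 2 of Rbp2f/f lacking LIF. Fewer of all genes were called in these fits as well. No listed gene passed for genotype in either medium.

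Of the other ligands, 4 of 8 tested were called higher in Rbp2-/- and 5 of 8 in Rbp2f/f cells, with 0 lower in each, beside 19.7% and 13.4% of all genes called higher. After quantile normalization the split was 2 higher and 1 lower in Rbp2-/- and 4 higher and 0 lower in Rbp2f/f cells. Wnt2, a ligand of early vessels and heart, read 121.7 and 218.5 in Rbp2-/- and 72.6 and 105.1 in Rbp2f/f cells without LIF, against 11.6 and 10.7 in Rbp2-/- and 2.7 and 0.9 in Rbp2f/f cells with it. Its rise was 2.73 ± 0.31 in Rbp2-/- (adjusted p = 6.8e-05) and 2.54 ± 0.31 in Rbp2f/f cells (adjusted p = 8.2e-05). Wnt6 read 140.5 and 265 in Rbp2-/- and 606.8 and 1088.6 in Rbp2f/f cells without LIF, against 50.2 and 51.8 in Rbp2-/- and 65.7 and 61.9 in Rbp2f/f cells with it. Its withdrawal effect was 1.65 ± 0.33 in Rbp2-/- and 3.38 ± 0.33 in Rbp2f/f cells, and its genotype difference without LIF, -1.98 ± 0.33, missed the threshold (adjusted p = 0.059), as did the difference of the withdrawal effects (-1.73 ± 0.46, adjusted p = 0.33). Wnt10a was at 0.65 ± 0.38 in Rbp2-/- cells (adjusted p = 0.22) and rose by 1.86 ± 0.38 in Rbp2f/f cells. Wnt4 rose by 1.31 ± 0.27 in Rbp2-/- cells, a call lost after quantile normalization (adjusted p = 0.073), and by 1.18 ± 0.27 in Rbp2f/f cells (adjusted p = 0.0076).

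Among the genes that process or boost ligands, Wls and Rspo3 rose and Porcn fell in both genotypes, of 3 tested. Wls, the carrier that takes Wnt proteins to the cell surface, averaged 820 ± 23.0 in Rbp2-/- and 950 ± 152 in Rbp2f/f cells without LIF, against 178 ± 41.8 in Rbp2-/- and 138 ± 16.9 in Rbp2f/f cells with LIF (SD, n = 2 each). Porcn, the enzyme that adds the lipid Wnt proteins need for secretion, averaged 55.5 in Rbp2-/- and 51.6 in Rbp2f/f cells without LIF, against 127 in Rbp2-/- and 119 in Rbp2f/f cells with it. Rspo3, a secreted enhancer of Wnt signalling, rose by 1.72 ± 0.33 in Rbp2-/- and by 3.02 ± 0.33 in Rbp2f/f cells (adjusted p = 0.0024 and 3.8e-05). All of these stayed called after quantile normalization.

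Receptors and co-receptors gave 9 higher and 1 lower of 17 tested in Rbp2-/- cells, and 6 higher and 1 lower in Rbp2f/f cells, beside 19.7% and 13.4% of all genes called higher. After quantile normalization the split was 5 higher and 1 lower in Rbp2-/- and 6 higher and 1 lower in Rbp2f/f cells. Lgr5, the R-spondin receptor and a Wnt target of adult stem cells, rose by 2.17 ± 0.26 in Rbp2-/- and by 1.10 ± 0.26 in Rbp2f/f cells. The Frizzled receptor Fzd2 rose by 1.98 ± 0.34 in Rbp2-/- and by 2.31 ± 0.34 in Rbp2f/f cells, reading 978.9 and 811 in Rbp2-/- and 1060.1 and 1022.4 in Rbp2f/f cells without LIF. Fzd4 rose in Rbp2-/- cells, by 1.74 ± 0.27, and was at 0.28 ± 0.27 in Rbp2f/f cells, with the difference of these effects at 1.46 ± 0.38 (adjusted p = 0.33). Fzd3 rose by 1.74 ± 0.29 in Rbp2-/- and by 1.05 ± 0.29 in Rbp2f/f cells. Fzd1 rose by 1.20 ± 0.27 in Rbp2-/- cells, a call lost after quantile normalization (adjusted p = 0.076), and by 1.64 ± 0.27 in Rbp2f/f cells. Fzd8 was at 0.84 ± 0.32 in Rbp2-/- cells (adjusted p = 0.066) and rose by 1.61 ± 0.32 in Rbp2f/f cells. Fzd5 was the gene that fell, by 1.67 ± 0.31 in Rbp2-/- and by 1.07 ± 0.31 in Rbp2f/f cells.

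**Figure D5:**
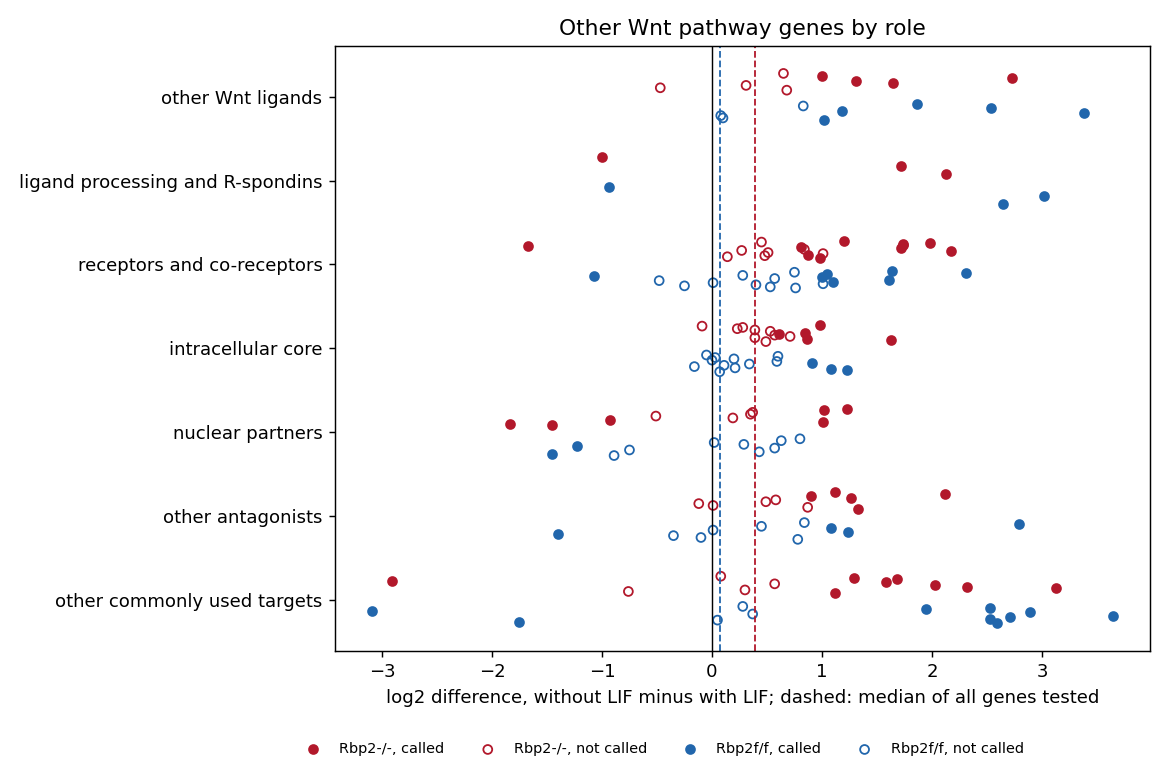
Withdrawal difference (log2, without LIF minus with LIF) of the 74 other Wnt pathway genes tested, grouped by role, in Rbp2-/- (red, upper rows) and Rbp2f/f cells (blue, lower rows); filled points were called, and dashed lines mark the median of all genes tested. The points run from -3.09 for Fgf4 to 3.65 for Mixl1, both in Rbp2f/f cells, and nuclear partners lie on both sides of 0 in both genotypes.

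Of the intracellular core, 5 of 14 tested genes were called higher in Rbp2-/- and 3 of 14 in Rbp2f/f cells, with 0 lower in each, beside 19.7% and 13.4% of all genes called higher. After quantile normalization 1 was called higher in Rbp2-/- and 5 in Rbp2f/f cells, with 0 lower in each. Tnks, a tankyrase that marks axin for degradation, rose by 1.63 ± 0.27 in Rbp2-/- and by 1.23 ± 0.27 in Rbp2f/f cells. Ctnnb1, which encodes beta-catenin, rose by 0.61 ± 0.19 in Rbp2-/- cells, 0.22 relative to the all-gene median, a call lost after quantile normalization along with those of Apc, Csnk1e and Gsk3b. It was at 0.34 ± 0.19 in Rbp2f/f cells (adjusted p = 0.24), where it passed after quantile normalization (adjusted p = 0.018). The kinase gene Gsk3b rose by 0.86 ± 0.28 in Rbp2-/- and by 1.08 ± 0.28 in Rbp2f/f cells, and Csnk1e, also a kinase gene, by 0.85 ± 0.27 in Rbp2-/- and by 0.91 ± 0.27 in Rbp2f/f cells.

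Nuclear partners gave 3 higher and 3 lower of 10 in Rbp2-/- and 0 higher and 2 lower in Rbp2f/f cells, beside 3.33% and 6.97% of all genes called lower. After quantile normalization 0 were called higher and 4 lower in each genotype. Tle4, a Groucho corepressor that binds TCF proteins, fell by 1.84 ± 0.28 in Rbp2-/- and by 1.45 ± 0.28 in Rbp2f/f cells. Tle5, a short relative of the corepressors, fell by 1.45 ± 0.32 in Rbp2-/- cells and was at -0.89 ± 0.32 in Rbp2f/f cells (adjusted p = 0.062). Tcf7l1, the repressive TCF that is abundant in ES cells, read 172.5 and 222.6 in Rbp2-/- and 166.5 and 159.6 in Rbp2f/f cells without LIF, against 395.2 and 204.7 in Rbp2-/- and 399.6 and 410.3 in Rbp2f/f cells with it. It fell by 1.23 ± 0.31 in Rbp2f/f cells (adjusted p = 0.011) and was at -0.51 ± 0.31 in Rbp2-/- cells, where it passed after quantile normalization (adjusted p = 0.014). Bcl9, a co-activator that binds beta-catenin, rose by 1.23 ± 0.30 in Rbp2-/- cells, a call lost after quantile normalization (adjusted p = 0.12), and was at 0.80 ± 0.30 in Rbp2f/f cells (adjusted p = 0.07).

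Other antagonists gave 5 higher and 0 lower of 10 in Rbp2-/- and 3 higher and 1 lower in Rbp2f/f cells, beside 19.7% and 13.4% of all genes called higher. After quantile normalization the split was 3 higher and 0 lower in Rbp2-/- and 2 higher and 1 lower in Rbp2f/f cells. Frzb, a secreted Frizzled-related protein, averaged 76.3 in Rbp2-/- and 115 in Rbp2f/f cells without LIF, against 3.95 in Rbp2-/- and 2.95 in Rbp2f/f cells with it, a rise of 2.12 ± 0.34 in Rbp2-/- and 2.79 ± 0.34 in Rbp2f/f cells. Nkd1, an intracellular inhibitor induced by the pathway, rose by 1.26 ± 0.28 in Rbp2-/- and by 1.08 ± 0.28 in Rbp2f/f cells. Znrf3, a ligase that removes Frizzled receptors, rose by 1.33 ± 0.28 in Rbp2-/- cells and was at 0.78 ± 0.28 in Rbp2f/f cells (adjusted p = 0.063). Sfrp2, a relative of Sfrp1, was at -0.12 ± 0.30 in Rbp2-/- cells (adjusted p = 0.8) and fell by 1.40 ± 0.30 in Rbp2f/f cells.

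Genes often used as Wnt targets gave 7 higher and 1 lower of 12 in Rbp2-/- and 7 higher and 2 lower in Rbp2f/f cells, beside 19.7% and 13.4% of all genes called higher. After quantile normalization the split was 3 higher and 2 lower in Rbp2-/- and 7 higher and 2 lower in Rbp2f/f cells. Msx2, a homeobox gene, read 1700.1 and 1244.7 in Rbp2-/- and 553.4 and 467.4 in Rbp2f/f cells without LIF, against 115.8 and 198.7 in Rbp2-/- and 101.6 and 53.8 in Rbp2f/f cells with it, and rose by 3.13 ± 0.33 in Rbp2-/- and 2.53 ± 0.33 in Rbp2f/f cells. Msx1, its relative, rose by 2.32 ± 0.39 in Rbp2-/- and by 2.71 ± 0.39 in Rbp2f/f cells. Sox17, an endoderm factor, rose by 1.12 ± 0.32 in Rbp2-/- cells, a call lost after quantile normalization (adjusted p = 0.066), and by 2.59 ± 0.32 in Rbp2f/f cells. Fgf4, also a gene of undifferentiated ES cells, fell by 2.91 ± 0.34 in Rbp2-/- and by 3.09 ± 0.34 in Rbp2f/f cells. The median of these 12 genes was 1.20 in Rbp2-/- cells, beside 0.39 over all genes, and 2.24 in Rbp2f/f cells, beside 0.07.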

How the data were processed

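Per the labels' protocols, biotinylated cRNA was made from 6 ug of DNase-treated RNA. The authors deposited 1 linear intensity per probe set and array, between 0 and 11476.5 (39 were 0). How they summarised, background-corrected and scaled the arrays is stated in no source used here (not given). The number of arrays limits the precision.

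Of 45101 probe sets, 34945 with 1 gene symbol that were no manufacturer's control were used. The brightest probe set over all arrays stood for a gene, genes under the 40th percentile were left out, and log2(intensity + 16) was fitted with limma 3.58.1 in R 4.3.3 on 4 group means over all 8 arrays, with eBayes and a mean-variance trend (4 residual and 10.9 prior degrees of freedom). Two-sided p-values were adjusted per contrast over 10916 genes (Benjamini-Hochberg). They belong to the measured differences, not to those relative to the all-gene median. The Wnt genes, gene lists and tests were chosen with earlier results of these data known. Named were all Wnt genes, Kdm5a, in each pathway list up to 3 called genes with the smallest p per contrast, and the 2 genes most correlated with each Wnt gene, leaving out clone and predicted names; further genes named beside these were chosen after their values were seen. The pipeline was tested on simulated data. Alternatives were other scalings, pseudocounts, filters, variance models, probe-set rules, a threshold of 0.01, a block on replicate number, and the removal of single arrays.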

Additional observations from a re-analysis of the deposited data

How the results depend on the processing

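Over 20 alternatives, each of Wnt5a and Dkk1 stayed called higher on LIF withdrawal in both genotypes, as did Axin2 and Sp5 in Rbp2f/f cells; their direction did not change. Of the 5 genes called in Rbp2-/- cells, 2 remained after quantile normalization and 2 after median centring, and leaving out 1 array gave 2 to 6. In Rbp2f/f cells the count was 4 to 7 throughout. It takes calls in either direction, and after quantile normalization it includes Sfrp1, which was called lower. For genotype with LIF the count rose above 0 in 1 alternative only, the fit without replicate 1 of Rbp2-/- with LIF. Far more of all genes were called there as well. For genotype without LIF, 1 was called with a pseudocount of 64, 1 with array weights and 2 with the replicate block. Those fits called 54, 487 and 149 of all genes for this contrast, against 3 as deposited. The count also rose above 0 in 1 fit with an array left out. The difference of the withdrawal effects gave 0 throughout. The cause of these moves was not tested.

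Differences that turned sign were all uncalled. For the difference of the withdrawal effects, Lef1 was -0.26 after quantile normalization and -0.22 after median centring, and Wnt5a 0.18 with a pseudocount of 64 and 0.17 with the mean of all probe sets. Axin2 for genotype without LIF was 0.15 with that mean. With 1 array left out, the difference of the withdrawal effects ranged from -0.53 to 0.60 for Lef1, -0.65 to 0.33 for Wnt3, -0.67 to 0.22 for Wnt5a and -0.05 to 0.73 for Sfrp1. Genotype with LIF ranged from -0.43 to 0.70 for Lef1, -0.19 to 0.67 for Wnt3 and -0.11 to 1.05 for Sp5. Genotype without LIF ranged from -0.41 to 0.58 for Wnt3 and -0.37 to 0.08 for Axin2, and withdrawal in Rbp2-/- cells from -0.73 to 0.05 for Sfrp1 and -0.24 to 1.89 for Sp5. The counts of other pathway genes under the alternatives were chosen after seeing the data.

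No label says that a replicate number marks a shared culture, and deviations of same-numbered samples correlated at -0.08 to 0.26 between groups. Over all genes, the replicate block gave 117 calls for genotype with LIF and 149 without, against 28 and 3 as deposited; over all 20 alternatives these counts ran from 0 to 2447 and from 0 to 487. Withdrawal calls ran from 1000 to 4515 in Rbp2-/- cells and from 889 to 3705 in Rbp2f/f cells, against 2512 and 2226, and the difference of the effects from 0 to 1430, against 0. Other Wnt pathway genes called higher numbered 15 to 38 in Rbp2-/- and 15 to 34 in Rbp2f/f cells, against 35 and 26. Wnt3 has no value under the 60th percentile filter, which it fails.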
